A study of Spodoptera litura with 9 samples.

Results

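Among the long non-coding RNAs (lncRNAs) of the testis of Spodoptera litura, the tobacco cutworm moth, 99 assembled transcripts were abundant and had close mean levels before, during and after the testes fuse. They were chosen from a table of 2476 lncRNA transcripts, of which 1919 carry the MSTRG IDs of a transcript assembly. The choice took the 1561 assembled transcripts that are the only row of their locus in this table. It kept the 361 with a mean count of 300 or more over the 9 libraries. Among these it kept the 99 (27.4%) whose highest stage mean exceeded the lowest by less than 25%. The means were of scaled counts, that is, counts divided by a size factor per library (the median of ratios to the geometric mean over all libraries). Stage means chose these lncRNAs, so how close the means lie is given as a description. The IDs are not paired with gene names or positions in the files, and no sequence of these transcripts was at hand, so they are named by ID.

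LncRNAs are transcripts that are not known to be translated; some act on chromatin or on neighbouring genes, and many have no known role. The testis is known in many animals for the breadth of its lncRNA repertoire. In moths, germ cells develop in the testis inside cysts of somatic cells, and in S. litura the paired larval testes join into a single organ around pupation. Libraries of rRNA-depleted testis RNA were made at 3 stages, with 3 libraries each. L6D4 are larvae on day 4 of instar 6, whose testes have not yet fused. L6D6 are prepupae on day 6 of that instar, whose testes are fusing, and P0D are pupae on day 0, whose testes have fused. Larvae of both ages were fed an artificial diet, and all stages were kept at 27 °C with 16 h of light and 8 h of dark. No group carried a treatment or an allele. Fusion, age and the passage from larva to pupa go together in these samples and cannot be told apart. The labels speak of 9 males and of repeats at each stage, without saying which animals entered which library, so the spread between libraries may be technical. In whole testes, fewer cells of a type and less RNA per cell cannot be told apart. The table holds lncRNAs only, so the tissue could not be checked against coding markers.

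Library totals lay between 2665554 and 4262529 lncRNA counts. Library P0D-3 stood apart in composition: its 10 most abundant lncRNAs held 59.42% of its counts, against 64.26% to 72.09% in the other 8 libraries. Its TMM factor, a scaling factor for composition, was 1.465, against 0.75 to 1.12 in the others. A pair of lncRNAs outside the steady set each held over 10% of every library, and neither met the choice. Over the 9 libraries, MSTRG.17821.1 held 28.5% to 34.7% of the counts and XR_002696881.1 held 17.3% to 26.5%. MSTRG.17821.1, also the only row of its locus, had a stage ratio (highest over lowest stage mean) of 1.280, just outside the limit. The annotated XR_002696881.1 had a ratio of 1.424.

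**Figure D1:**
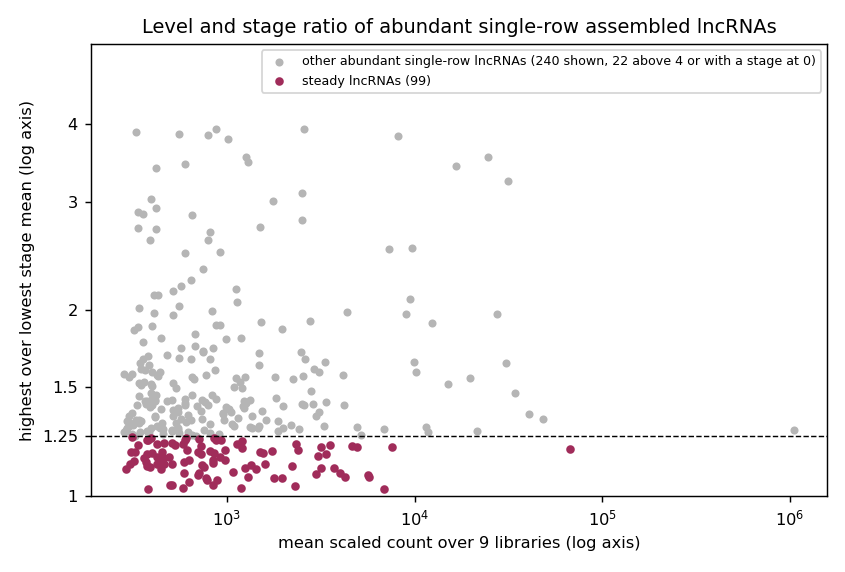
Each point is 1 abundant single-row assembled lncRNA, with its mean scaled count over 9 libraries on the x axis and its highest stage mean over its lowest on the y axis (both log axes). The 99 steady lncRNAs lie by choice under the dashed line, where the means differ by 25%, and 22 of the other 262 are not drawn because their ratio is above 4 or a stage is at 0.

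The steady lncRNAs spanned mean scaled counts from 290.8 to 67096, with a median of 753.5. A single transcript, MSTRG.16357.1, held 32.9% of their summed counts, and the 10 with the highest mean scaled counts held 56.6%. Of all rows, MSTRG.16357.1 ranked 4th in mean scaled count, and 5 of the steady lncRNAs were among the 50 highest rows. These were MSTRG.16357.1, MSTRG.2191.10, MSTRG.7402.1, MSTRG.18157.1 and MSTRG.7820.1. Counts are not per length, which the files do not give, so an order by count is not an order by number of molecules. Stage ratios ran from 1.03 to 1.245, with a median of 1.15, and 24 lncRNAs were under 1.1. The highest mean stood at L6D4 for 40, at L6D6 for 25 and at P0D for 34, so the small differences between stages did not all run one way. Abundant rows of the other kinds met the same ratio about as often: 22 of 72 annotated lncRNAs (30.6%) and 22 of 78 assembled transcripts from loci with several rows (28.2%).

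MSTRG.16357.1 had scaled counts of 61283, 66293 and 88939 in the L6D4 libraries, 61785, 59594 and 60114 at L6D6, and 91931, 71889 and 42036 at P0D. The means were 72172 ± 14735, 60498 ± 1145 and 68619 ± 25108 (SD, n = 3 each), a stage ratio of 1.193. The L6D6 libraries lay close together, while P0D-1 was the highest and P0D-3 the lowest of all 9, so the P0D range enclosed both other stages. This transcript alone held between 1.73% and 2.29% of the lncRNA counts of a library.

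MSTRG.2191.10 stood at 7019, 6067 and 6975 at L6D4, 8036, 8248 and 7832 at L6D6, and 9103, 9022 and 5764 at P0D. All L6D6 libraries were above all L6D4 libraries, and P0D-3 was again the lowest of the 9. MSTRG.7402.1 stood at 6568, 6344 and 7496, then 6971, 6964 and 7022, then 8251, 7767 and 4505 over the same libraries. Its stage means were 6803 ± 611, 6985 ± 31.8 and 6841 ± 2037 (SD, n = 3 each), a ratio of 1.027 with spreads that differ widely between stages. At L6D6 its 3 libraries varied by less than counting error alone would give on average (0.16 times that variance), and at P0D by 703 times it.

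MSTRG.18157.1 had stage means of 5871 ± 847, 5726 ± 177 and 5468 ± 2641 (SD, n = 3 each), with 7862, 5908 and 2634 in the P0D libraries. MSTRG.14507.1 had means of 5173 ± 797, 4468 ± 234 and 4292 ± 1720 (SD, n = 3 each), with 5936, 4436 and 2504 at P0D. In both, P0D-3 held less than any other library of any stage. The next group was more even: MSTRG.7820.1 lay between 4329 and 6755 over the 9 libraries, and MSTRG.9363.1 between 3805 and 6060. MSTRG.19477.1 lay between 3592 and 4992, MSTRG.14759.1 between 2821 and 5110, and MSTRG.6420.1 between 3182 and 4842. Of these 10 most abundant steady lncRNAs, all 10 were highest at P0D in P0D-1, and 8 were at the lowest of all libraries in P0D-3; the exceptions were MSTRG.9363.1, lowest in L6D4-3, and MSTRG.6420.1, lowest in L6D4-1.

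**Figure D2:**
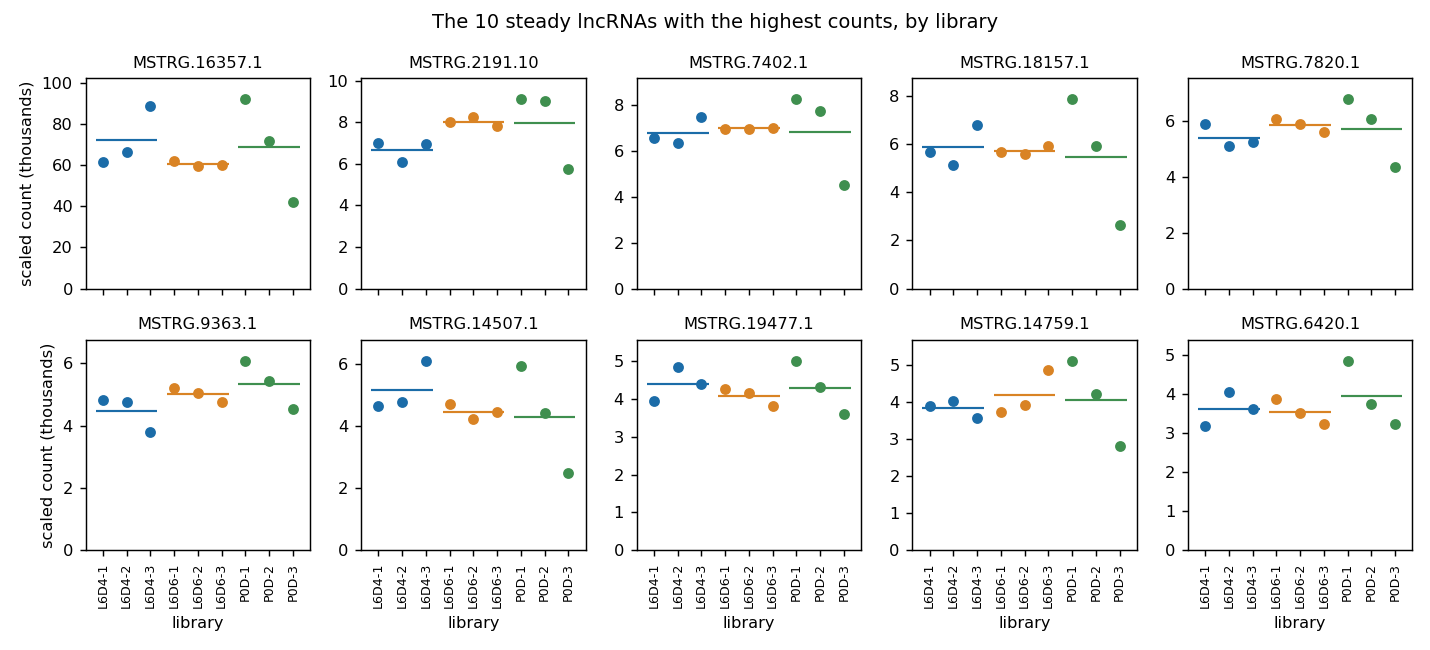
Scaled counts (in units of 1000, y axis from 0) of the 10 steady lncRNAs with the highest mean scaled counts in each of the 9 libraries (x axis; points, coloured by stage), with stage means as lines. The L6D6 points mostly sit close together, as for MSTRG.7402.1 (6964 to 7022), while the P0D points spread, with P0D-1 the highest of the P0D libraries in each panel.

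The spread between libraries of a stage was not part of the choice, though a small spread makes close means more likely. It was measured as the coefficient of variation (CV, SD over mean of the 3 scaled counts). The median CV of the steady lncRNAs was 12.6% at L6D4, 8.6% at L6D6 and 18.2% at P0D. In the other 262 abundant single-row lncRNAs it was 16.3%, 9.89% and 18.5% (at L6D4 over the 261 with a count). The steady lncRNAs were thus less spread in their medians at L6D4 and L6D6 and nearly level with the others at P0D, which is a description of the 2 sets and was not tested. The CV was largest at P0D for 65 of the 99, at L6D4 for 27 and at L6D6 for 7. With counting error alone the median CV would be 3.94%, 3.41% and 3.41% at the 3 stages. The median variance was 9.72, 6.27 and 29.8 times that of counting error, and it exceeded counting error in all 3 stages for 81 of the 99. Without P0D-3 the median CV at P0D was 7.43%, over the remaining 2 libraries, against 17.2% without P0D-1 and 23.2% without P0D-2.

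**Figure D3:**
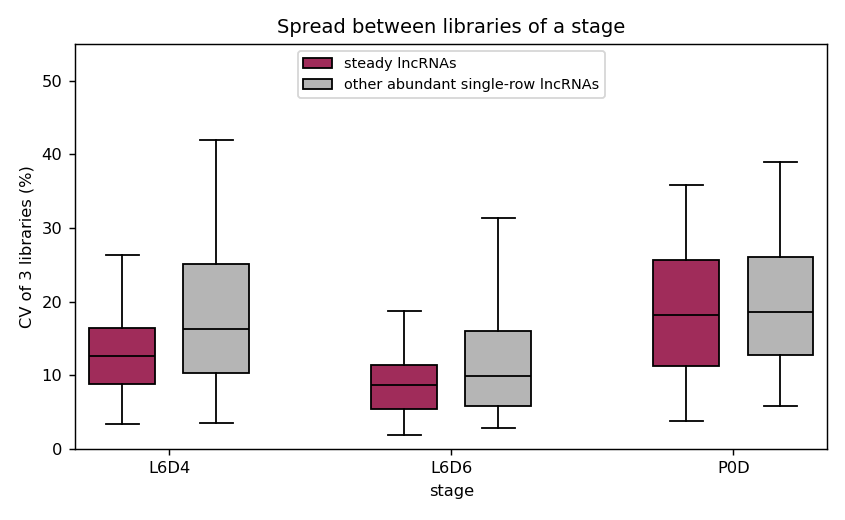
Box plots of the CV of the 3 libraries of each stage (y axis, percent) for the 99 steady lncRNAs and the other 262 abundant single-row lncRNAs. Boxes span the quartiles, lines are medians and whiskers run from the 5th to the 95th percentile; the medians of the steady set are 12.6%, 8.6% and 18.2%.

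The most repeatable of the steady lncRNAs were not the ones with the closest stage means. MSTRG.12902.1 had the smallest mean CV, 4.42%, with 1604, 1681 and 1603 at L6D4, 1367, 1544 and 1554 at L6D6, and 1438, 1353 and 1358 at P0D. Its L6D4 libraries lay above all others, without overlap, at a stage ratio of 1.178. It was also the only steady lncRNA whose highest library exceeded its lowest by less than 25% (1.24 times).

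MSTRG.11244.1 (mean CV 5.15%) stood at 601, 576 and 600, then 582, 518 and 534, then 622, 697 and 708, with every P0D library above all others. MSTRG.5117.1 (5.92%) stood at 744, 846 and 726 at L6D4, 835, 958 and 901 at L6D6, and 959, 971 and 926 at P0D, with P0D wholly above L6D4. MSTRG.7110.1 (6.55%) stood at 616, 622 and 557 at L6D4 and at 496, 504 and 483 at L6D6, without overlap. Its P0D libraries, at 460, 464 and 560, overlapped both. In MSTRG.12851.1 (7.26%), which lay between 783 and 1097, all stages overlapped.

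At the other end, MSTRG.19120.1 had the largest mean CV, 33.49%, and one of the 3 smallest stage ratios, 1.031. Its scaled counts were 580, 430 and 784 at L6D4, 471, 525 and 747 at L6D6, and 791, 666 and 284 at P0D. Its stage means of 598, 581 and 580 were nearly equal over libraries that differed 2.79-fold. MSTRG.5811.2 (24.09%) ran from 558 to 1246, with its highest value in P0D-3, and MSTRG.10417.1 (23.92%) from 213 to 406. MSTRG.9478.1 (22.56%) held 679 in L6D4-1 against 376 and 359 in the other L6D4 libraries, and MSTRG.18157.1 (21.94%), described above, completes these 5. None of the 5 had stages that did not overlap. The remaining lncRNA with a very small stage ratio, MSTRG.3470.1 (1.026), lay between 305 and 486, both at L6D4.

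Over all 99, the scaled counts of 18 did not overlap between at least 1 pair of stages, where 56.5% of the 1913 lncRNAs tested in the whole table did not. Since close means were required, the lower share follows from the choice and nothing is read from it. L6D4 and L6D6 did not overlap for 11 (11.1%, against 42.3% of all tested), and L6D4 and P0D for 7 (7.07%, against 38.6%). L6D6 and P0D did not overlap for 3 (3.03%, against 16.8%), which were MSTRG.11244.1, MSTRG.16608.1 and MSTRG.18141.1. The highest library was a median of 1.6 times the lowest, and it was under 1.5 times for 26 and under 2 times for 90 of the 99.

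In edgeR's quasi-likelihood test over the 3 stages, fitted on the whole table, 0 of the 99 passed a Benjamini-Hochberg adjusted p of 0.05, against 24.8% of all 1913 tested lncRNAs; the same means chose the 99, so nothing is read from this. At an unadjusted p under 0.05 the count was also 0, and no share of the whole table is given for that limit. DESeq2 called 0 of the 99, against 564 lncRNAs over the whole table, and the number that it tested is not given. Nothing is read from these counts either. Between single stages edgeR called 0 of the 99 as well (background 22.1% for L6D6 against L6D4, 1.78% for P0D against L6D6 and 26.6% for P0D against L6D4; DESeq2 was not run on single pairs). Without P0D-3, edgeR called 514 lncRNAs over the whole table and 1 of the 99. This was MSTRG.2191.10 (adjusted p = 0.034), whose stage ratio was then 1.357. The number of lncRNAs tested without P0D-3 is not given, and nothing is read from that count either.

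The replicate spread also sets the width of the 95% intervals of the log2 fold changes. The standard error of a log2 fold change between stages had a median of 0.19 and ran from 0.13 to 0.34. For 37 of the 99 (37.4%, against 3.5% of all tested lncRNAs), the intervals of all 3 pairwise folds lay within 1.5-fold in either direction. For the other 62 a change of 1.5-fold was inside an interval. The intervals are centred on folds between the stage means that chose the 99, so nothing is read from the count against the whole table. Without any 1 library other than P0D-3 this count fell to between 15 and 22, and without P0D-3 it was 46. The farthest bound was a 1.35-fold change for MSTRG.18435.1, the narrowest, named here after its values were seen, and 1.81-fold for MSTRG.14507.1. For MSTRG.16357.1 the log2 fold change was -0.27 (95% interval -0.84 to 0.30) from L6D4 to L6D6 and 0.17 (-0.40 to 0.74) from L6D6 to P0D. For MSTRG.7402.1 it was 0.02 (-0.43 to 0.47) and -0.04 (-0.50 to 0.41).

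Library P0D-3 differed from the other P0D libraries in many of the steady lncRNAs. Its scaled count was more than 20% below the mean of P0D-1 and P0D-2 for 45 of the 99, more than 25% above it for 20 and between for 34. The ratio ran from 0.383 in MSTRG.18157.1 to 1.84 in MSTRG.5811.2, with a median of 0.831. In the other abundant single-row lncRNAs the shares were alike: 42% lay more than 20% below and 21.8% more than 25% above, against 45.5% and 20.2% of the steady ones. The direction went with abundance among the steady lncRNAs. In the 33 with the highest mean scaled counts the median ratio was 0.738, with 22 beyond the lower and 2 beyond the upper of these limits (MSTRG.7953.3 and MSTRG.20571.1, named after their values were seen). In the 33 with the lowest it was 1.11, with 11 beyond the lower and 13 beyond the upper limit. The composition of P0D-3 given above moves with these values, and its part in them was not tested.

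The form of the counts differed too. For 54 of the 99 steady lncRNAs (54.5%) every value was an exact whole number, and for 45 at least 1 value carried decimals; among the other abundant single-row lncRNAs 124 of 262 (47.3%) were whole. Of the 54 with whole counts, 31 were more than 20% lower in P0D-3 and 8 more than 25% higher, with a median ratio of 0.774. Of the 45 with decimals, 14 were lower and 12 higher by these limits, with a median of 0.973. Among the other abundant single-row lncRNAs the medians lay closer. Of the 124 with whole counts, 58 were lower and 31 higher, with a median of 0.819. Of the 138 with decimals, 52 were lower and 26 higher, with a median of 0.907. The form of the counts was not separated from abundance, so these values may overlap with the differences by abundance given above. No steady lncRNA had values identical to those of another row in all libraries. The last number of the ID was 1 for 86 and higher for 13, such as MSTRG.2191.10; other transcripts of those loci were not analysed here.

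**Figure D4:**
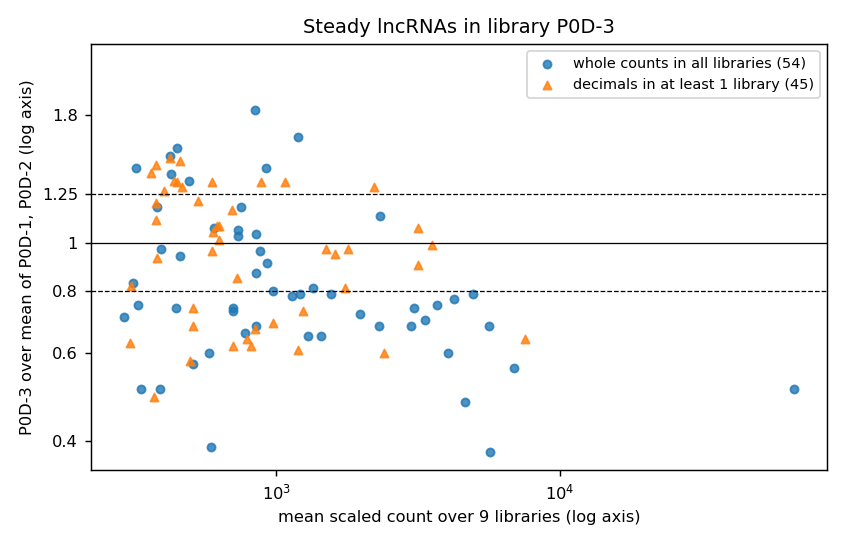
For each of the 99 steady lncRNAs, the scaled count in P0D-3 divided by the mean of P0D-1 and P0D-2 (y axis, log) against its mean scaled count over 9 libraries (x axis, log). Circles are the 54 lncRNAs with whole counts throughout and triangles the 45 with decimals; the dashed lines mark 20% below and 25% above equality, and 45 of the 99 lie under the lower and 20 above the upper.

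Deviations from the stage mean were correlated between some libraries of different stages. Across the 99 steady lncRNAs, the log2 deviation in L6D4-3 correlated with that in P0D-1 at r = 0.48 and with that in P0D-3 at r = -0.49, the largest in each direction among pairs of libraries from different stages. In the other abundant single-row lncRNAs without a 0 (n = 261) these were 0.48 and -0.41. These are correlations across lncRNAs that share libraries and scaling, and are a description. L6D4-3 and P0D-3 had the smallest library totals, 2665554 and 2738573 counts, and TMM factors at opposite ends, 0.75 and 1.465.

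As a share of the library, the steady lncRNAs did not stand level. Together they held 5.5%, 5.25% and 5.01% of the counts in the L6D4 libraries, 6.25%, 6.06% and 6.54% at L6D6, and 6.04%, 6.58% and 6.73% at P0D. Every L6D4 library was below every library of the later stages, with means of 5.25% ± 0.25, 6.28% ± 0.24 and 6.45% ± 0.36 (SD, n = 3 each). Leaving out MSTRG.16357.1, the shares were 3.42% ± 0.38, 4.34% ± 0.16 and 4.33% ± 0.58 (SD, n = 3 each). The separation then ended, with 3.77% in L6D4-1 and 3.75% in P0D-1. Outside the 2 most abundant lncRNAs of the table, the steady lncRNAs held 11.83% ± 0.08, 13.48% ± 0.39 and 13.97% ± 1.13 of the counts (SD, n = 3 each).

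Summed scaled counts, by contrast, were 205136 ± 16072, 195264 ± 2505 and 202796 ± 43849 (SD, n = 3 each), with stages that overlap. The difference lies in the scaling: with library totals alone, the median log2 fold change of all tested lncRNAs was 0.31 from L6D4 to L6D6 and 0.41 from L6D4 to P0D, against -0.01 and 0.04 with size factors. The medians over the 99 were 0.30 and 0.35 with library totals. By library totals, 98 of the 99 had a higher mean share at L6D6 than at L6D4 (not MSTRG.4883.1) and 97 a higher one at P0D than at L6D4 (not MSTRG.10119.1 and MSTRG.14507.1), whereas with size factors 47 and 49 were higher. As a set, these lncRNAs were therefore steady relative to the bulk of the lncRNAs and not as a share of the library. Some members were within the limit by both: with library totals, 93 lncRNAs met it, and 34 of them were among the 99. MSTRG.16357.1 was 1 of the 34, with a stage ratio of 1.158 by library totals. EdgeR with that scaling called 432 of the 1913 tested lncRNAs, 4 of them among the 99. These were MSTRG.2191.10 (adjusted p = 0.0152), MSTRG.1611.1 (0.021), MSTRG.15753.1 (0.042) and MSTRG.21159.1 (0.0489).

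**Figure D5:**
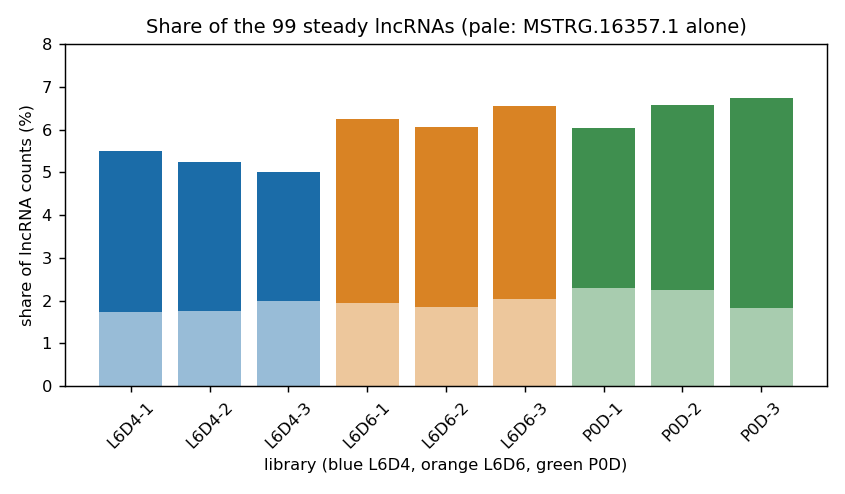
Share of all lncRNA counts held by the 99 steady lncRNAs in each library (bars from 0, percent), coloured by stage, with the pale lower part for MSTRG.16357.1 alone. The L6D4 bars end between 5.01% and 5.5%, below all later ones, which end between 6.04% and 6.73%.

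Which lncRNAs were chosen depended on single libraries. Leaving out 1 library at a time gave sets of 77 to 110, which shared between 72 and 92 members with the 99. Of the 99, 37 met both limits, on the stage ratio and on the mean count, in all 9 of these sets. MSTRG.7365.1 kept its stage ratio within the limit each time (at most 1.229) but met both limits in 5 of the 9. Among the 10 most abundant, MSTRG.7402.1, MSTRG.7820.1, MSTRG.19477.1, MSTRG.14759.1 and MSTRG.6420.1 met both limits in all 9 sets. MSTRG.16357.1 stayed in 6 of the 9, and its stage ratio was 1.355 without P0D-3. MSTRG.14507.1 also stayed in 6, with a ratio of 1.484 without P0D-1. Of the 37, 12 also kept within the limit both with TMM factors and with library totals, among them MSTRG.19477.1, MSTRG.12902.1 and MSTRG.12851.1.

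Libraries that the choice did not use were examined by applying it to 2 replicates of each stage and measuring the highest over the lowest of the 3 left-out libraries, 1 a stage. With replicate 1 left out, 26 of 80 chosen lncRNAs (32.5%) were within 25% in the left-out libraries, against 77 of 272 abundant single-row lncRNAs passed over (28.3%). With replicate 2 left out it was 44 of 96 (45.8%) against 46 of 257 (17.9%). With replicate 3 left out it was 17 of 124 (13.7%) against 30 of 243 (12.3%). The shares within 25% lay apart by under 5 percentage points for replicates 1 and 3, and far apart for replicate 2. The median left-out ratio was lower in the chosen set each time, 1.32 against 1.46, 1.3 against 1.56 and 1.55 against 1.79. The lncRNAs passed over include all with large differences between stages. A higher share within 25% and a lower median in the chosen set were therefore likely from the start. Nothing is read from the shares or the medians. The left-out libraries may also be technical repeats of those used, so they may not be independent of the choice. The replicate numbers were taken only as names, and these counts were not tested.

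Both limits cut through a continuous range. Just inside the ratio stood MSTRG.9430.1 (1.244), MSTRG.21203.1 (1.244) and MSTRG.4883.1 (1.245), and just outside MSTRG.12935.1 (1.252), MSTRG.4228.1 (1.252) and MSTRG.20800.1 (1.256). MSTRG.21203.1 stood at 1000, 844 and 1056 at L6D4 and at 841, 809 and 681 at L6D6, without overlap, while MSTRG.12935.1, outside, overlapped in its stages, with 324, 220 and 344 against 385, 444 and 283. Near the limit on abundance, MSTRG.7365.1, MSTRG.10417.1 and MSTRG.6691.1 had mean counts of 302.8, 312.1 and 323.9. MSTRG.15442.1, MSTRG.13553.1 and MSTRG.7772.1, with ratios within the limit, fell short at 295.0, 291.7 and 287.6.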

How the data were processed

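The table as deposited by the authors holds an estimated count for each lncRNA transcript and library, not scaled. Its 9 columns bear the sample names. The tools named in the submitters' processing notes, without their roles, are DESeq2 1.6.3, StringTie 1.3.4, HISAT2 2.1.0, Bowtie2 2.2.8 and fastp 0.18.0. How reads were counted, on which genome build, whether by strand and with which lncRNA filters are details not given in the sources used here, so overlapping transcripts are uncertain. The labels name polyA RNA as the molecule, while per the labels' protocols rRNA was removed.

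Members were chosen on values as deposited, scaled by size factors over the 1872 rows without a 0. They, the lists and the tests were chosen with earlier results of these data known. For the tests, values were rounded to whole counts, although the plan had named counts. EdgeR 4.0.16 (R 4.3.3) was fitted to all 9 libraries with TMM, filterByExpr (1913 rows tested, 563 left out) and Benjamini-Hochberg adjustment over all rows. Its intervals take SE as the log2 fold over the root of F. DESeq2 1.42.0 (likelihood ratio test) was an alternative. The edgeR fit and the selection were tested on simulated data. Library totals lay between 2665554 and 4262529 counts; intervals and counting errors do not cover PCR duplicates.

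Named lncRNAs were the 10 most abundant members, the 5 with the smallest and the 5 with the largest mean CV, the 3 with the smallest ratio, 3 on each side of both limits, and any lncRNA over 10% of a library. Alternatives changed scaling, limits, filter, replicate block and libraries.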

Additional observations from a re-analysis of the deposited data

How the results depend on the processing

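The number of steady lncRNAs was 99 and stayed within 1.5 times of that with TMM factors (101), library totals (93), rounded values (99) and each library left out (77 to 110). A like number did not mean the same lncRNAs: with library totals, 34 of the 99 were shared, 65 were lost and 59 were gained. Other limits moved the number: 224 with a ratio under 1.5, 24 with a ratio under 1.1, 183 with a mean count of 100 or more and 37 with 1000 or more, as the limits' own construction gives. The count of lncRNAs whose intervals lie within 1.5-fold was 37; it was 9 with library totals and between 15 and 46 with single libraries left out; the cause was not tested. The mean share of a library was 6% and became 13.1% outside the 2 most abundant lncRNAs, a smaller denominator. With a limit of 1.5 in the left-out libraries, 73.8%, 86.5% and 45.2% of the chosen lncRNAs passed for replicates 1, 2 and 3. Of those passed over, 54.4%, 44.7% and 31.7% did, and nothing is read from these shares either. Stage differences over the whole table were called for 474 lncRNAs, and every alternative stayed within 1.5 times of that: 564 with DESeq2, 432 with library totals, 458 without the filter and 354 to 514 with a library left out.

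The replicate block gave 409 calls over the table, 0 of them steady lncRNAs, and 32 steady lncRNAs within 1.5-fold. Deviations from the stage mean in libraries with the same number correlated at -0.154 to 0.0885 across the 1913 tested lncRNAs and at -0.49 to 0.29 across the 99 steady ones. Not every pair was above 0.1 in either set, so the numbers were not taken to pair the samples. The 33 named lncRNAs had 363 stage ratios under alternatives; 338 moved by less than their spread between replicates and 25 by more, 19 of these with library totals.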
